A study of Mus musculus with 8 samples.

Results

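The genes described here encode 10 RNA-binding proteins and partners of stress granules, namely G3bp1, G3bp2, Caprin1, Usp10, Tia1, Tial1, Pabpc1, Atxn2, Fmr1 and Fxr1. They were taken by symbol from both deposited expression tables, and all 10 were listed in each, among 18645 genes in the hepatic stellate cell table, 17408 in the macrophage table and 19382 in either. The set was chosen by the level of G3bp2 in macrophages, which was lower with auranofin, so that contrast of G3bp2 is given as a description without a test. All 10 genes averaged 1 FPKM or more in each table and entered the fits.

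Stress granules are assemblies of messenger RNA and protein that form in the cytoplasm when a stress stops the initiation of translation, usually through phosphorylation of the initiation factor eIF2α, and that dissolve when translation resumes. G3BP1 and G3BP2 are paralogs that bind RNA and nucleate the granule, Caprin-1 binds G3BP and favours assembly, and USP10 binds the same site on G3BP and opposes it. TIA1, TIAL1, the poly(A)-binding protein PABPC1, ataxin-2 and the fragile X family proteins FMR1 and FXR1 are recruited with the stalled transcripts. Transcript levels as measured here say nothing on whether granules had formed.

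RNA was sequenced from 2 kinds of primary cells of C57BL/6 mice, with 2 libraries in each of 4 groups. Activated hepatic stellate cells (AHSC), the collagen-producing cells of the injured liver, were left without drug (vehicle by the study's text, untreated by the labels) or exposed to 0.03 µM auranofin, a gold compound used in rheumatoid arthritis, for 12 h. Bone marrow-derived macrophages (BMDM), grown with M-CSF for 7 days from marrow of 8-week-old males, all received 100 ng/mL lipopolysaccharide (LPS) and 1 mM ATP, and the treated group also received auranofin for 1 h at 0.1 µM by the labels and 0.3 µM by the study's legend. The stellate cells were separated from other liver cells by density, not by a sorted marker, and no BMDM library was without LPS and ATP. Doses, times and normalization differed between the cell types, so each table was fitted alone and differences between cell types were not tested.

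Depth was estimated from the steps in low FPKM values (fragments per kilobase of transcript and per library size) and ran from 27600000 to 39500000 fragments per library. In BMDM, auranofin replicate 1 stood apart. Hmox1, the haem oxygenase used as a check of the response to auranofin, had 82.7 and 86.7 FPKM in the BMDM controls, 4403 FPKM in the first auranofin library and 85.3 FPKM in the second. Of 9232 genes, 23.2% lay at least 1.5-fold from the control mean in auranofin replicate 1 and 0.661% in replicate 2, and it was not tested what set the libraries apart. In AHSC, Hmox1 had 391 and 368 FPKM in the controls and 1297 and 1141 FPKM with auranofin. The AHSC libraries held macrophage transcripts, with 11 of 12 markers at 1 FPKM or more, a summed level of 8534 to 8617 FPKM across the 4 libraries, and Lyz2 at 5536 ± 24.3 FPKM (SD, n = 2) in the controls. The same markers summed to 7031 to 7920 FPKM in the BMDM libraries, which were normalized separately, so the AHSC sums were no lower than those of macrophages. All 12 stellate markers reached 1 FPKM in AHSC, and their sum was 4299 and 4411 FPKM in the controls and 3775 and 3823 FPKM with auranofin. The markers did not all fall. Acta2, Col1a1, Col1a2, Col3a1, Des, Rgs5 and Tagln were below the control mean in both auranofin libraries, and Lrat and Reln were above it in both. Pdgfrb and Hand2 lay on both sides of it, and Timp1 was above it in replicate 1 and level with it in replicate 2. All 8 endothelial markers also reached 1 FPKM, with sums of 196 to 207 FPKM. Lymphocyte and neutrophil markers summed to 17.6 and 6.66 FPKM in the AHSC controls. With auranofin that sum was 6.22 FPKM in replicate 1 and 68.6 FPKM in replicate 2. The part of these mixtures in the values below was not tested, and in bulk RNA fewer cells of a type and less RNA per cell cannot be told apart.

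Stretches before transcription starts are shown for G3bp2, on which the set was selected, and for its paralog G3bp1, because their levels in BMDM auranofin replicate 1 lay on opposite sides of the controls. For each RefSeq start in assembly GRCm38.p6 a window of the 250 bases before it was searched in the direction of the gene, and positions are counted back from that start, where -1 is the base before it. The G3bp1 window, chr11:55469502-55469751 on the plus strand, overlaps the full RefSeq span of the gene by 95 bases, because that span begins at base 55469657, ahead of the start used. G3bp2 has 3 RefSeq starts, and the window shown, chr5:92083599-92083848 on the minus strand, lies within the span of the gene, which begins further upstream. The printed stretches leave out what overlaps an annotated exon of the gene or, for G3bp1, its span, and are chr11:55469502-55469656 and chr5:92083720-92083848. Capitals mark the CCAAT box (CCAAT, or ATTGG on the other strand) and, in G3bp1, also the letters of an antioxidant response element (TGANNNNGC, here on the other strand).
G3bp1: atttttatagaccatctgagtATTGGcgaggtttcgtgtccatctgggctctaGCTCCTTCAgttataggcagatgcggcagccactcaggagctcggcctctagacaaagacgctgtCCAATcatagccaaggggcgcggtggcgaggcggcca
G3bp2: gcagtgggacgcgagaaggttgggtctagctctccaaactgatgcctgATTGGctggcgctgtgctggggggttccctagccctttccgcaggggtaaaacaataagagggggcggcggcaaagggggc
The G3bp1 window holds CCAAT boxes beginning at -229, -132 and -96, the last across the first base of the RefSeq span and so not printed. It also holds 1 TGANNNNGC match beginning at -197. The G3bp2 window shown holds 1 CCAAT box, at -202, and those of its other starts hold none. These letters are common: CCAAT was found in 33.8% and TGANNNNGC in 35.2% of 32851 mouse promoter windows of the same length. Among 14 windows of 9 of the genes (no window was at hand for Pabpc1), TGANNNNGC was found in G3bp1 and in Atxn2, and neither GAANNTTC, a heat shock element, nor TGANTCA, an AP-1 site, was found in any, against 6.69% and 6.75% of all windows. Motifs were searched on both strands, and a match describes letters only.

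The order of the levels in untreated AHSC ran from Pabpc1 to Tia1 (the plot of FPKM by library). Pabpc1, whose protein coats the poly(A) tail, had 329 ± 4.06 FPKM (SD, n = 2), above 98.4% of the genes tested. It was followed by Caprin1 at 84.0 ± 2.17, G3bp1 at 48.5 ± 1.302, Fxr1 at 40.1 ± 0.389, G3bp2 at 37.5 ± 1.79, Fmr1 at 22.4 ± 0.374, Atxn2 at 20.1 ± 0.230, Tial1 at 13.0 ± 0.135, Usp10 at 12.2 ± 0.270 and Tia1 at 7.60 ± 0.113 FPKM. In the BMDM controls Pabpc1 had 301 ± 2.88 FPKM and Tia1 1.51 ± 0.154 FPKM, and the order was the same except that G3bp1 and G3bp2 changed places. In neither table did the 2 control values of one gene overlap those of the next in the order, but Fxr1 and G3bp2 in BMDM nearly met, at 46.69 and 46.73 FPKM. Tia1, Usp10, Atxn2 and Tial1 had lower control values in BMDM than in AHSC by a wide margin, a difference across separately normalized tables that was not tested.

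**Figure D1:**
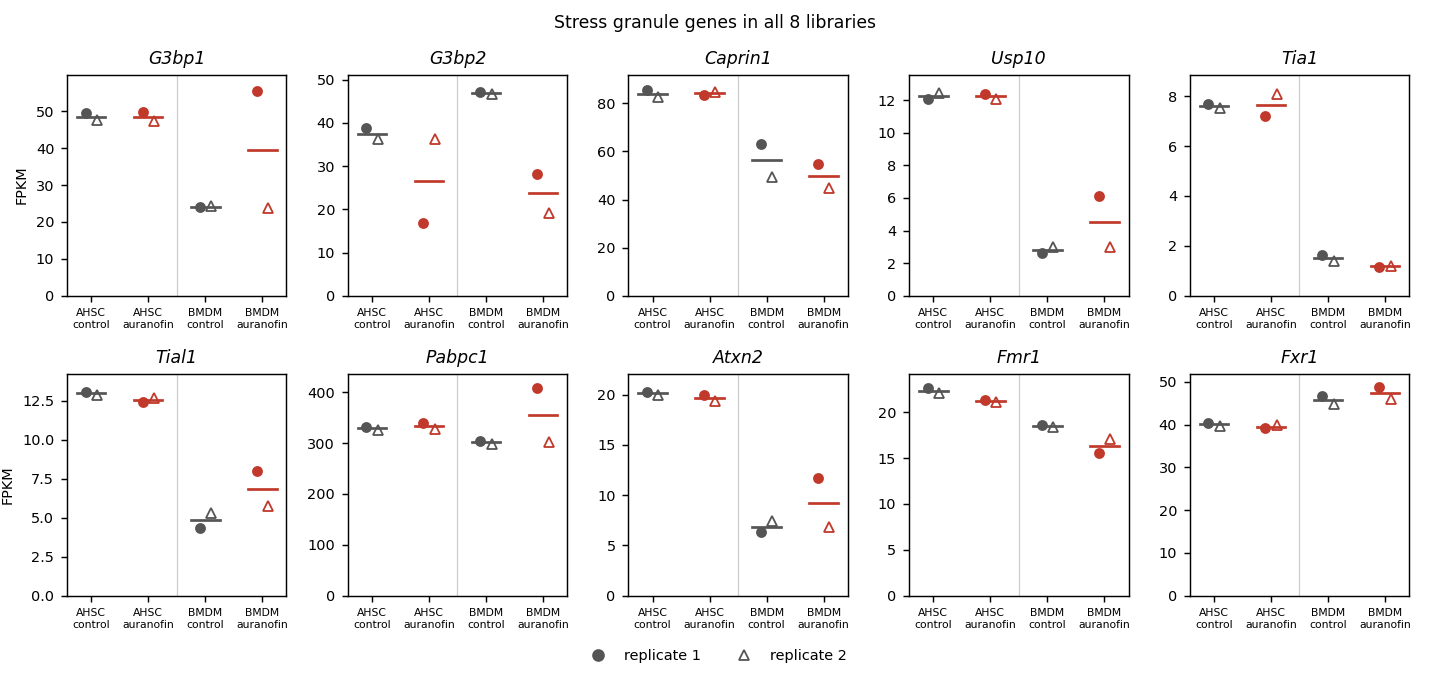
FPKM of the 10 stress granule genes in each library, with AHSC and BMDM control libraries in grey and auranofin libraries in red (replicate 1 filled circle, replicate 2 open triangle) and a line at the mean of each group. In AHSC only G3bp2 shows a wide gap, 16.7 against 36.3 FPKM between the auranofin libraries, and in BMDM auranofin replicate 1 lies far above the other libraries for G3bp1, Usp10, Atxn2 and Pabpc1.

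G3bp1 and G3bp2, the paralogs that nucleate the granule, were examined first. In AHSC, G3bp1 had 49.4 and 47.6 FPKM in the controls and 49.9 and 47.2 FPKM with auranofin. The groups overlapped, and the log2 fold change was 0.0022 (SE 0.043, limma, Benjamini-Hochberg adjusted p = 0.987 over 12149 genes). G3bp2 had 38.8 and 36.3 FPKM in the controls and 16.7 and 36.3 FPKM with auranofin. One auranofin library was thus lower by a wide margin, while the other sat just under the lower control, at 36.264 against 36.272 FPKM. The log2 fold change of G3bp2 in AHSC was -0.58 (95% interval -1.37 to 0.20, SE 0.32, limma adjusted p = 0.405), a difference that did not exceed the spread between replicates. Without auranofin replicate 1 it was -0.048, and without auranofin replicate 2 it was -1.12 with a limma adjusted p of 0.00160, in a fit that assumes the lone library to vary like the controls.

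The AHSC auranofin libraries differed by a factor of 2.17 in G3bp2. Of 6430 AHSC genes that averaged 10 FPKM or more, 20, or 0.311%, differed at least 2-fold between these libraries, and G3bp2 stood at rank 16 by the size of the difference. The other 8 stress granule genes above this mean differed by a factor of 1.01 to 1.06. Between the AHSC controls G3bp2 differed by a factor of 1.07. Tardbp, another stress granule RNA-binding protein gene, chosen after its values were seen, had a similar pattern in AHSC, with 22.4 and 22.5 FPKM in the controls and 10.002 and 21.6 FPKM with auranofin. In BMDM Tardbp was not lower. Its log2 distances from the control mean there were 0.56 and 0.28 with auranofin and -0.34 and 0.34 in the controls.

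**Figure D2:**
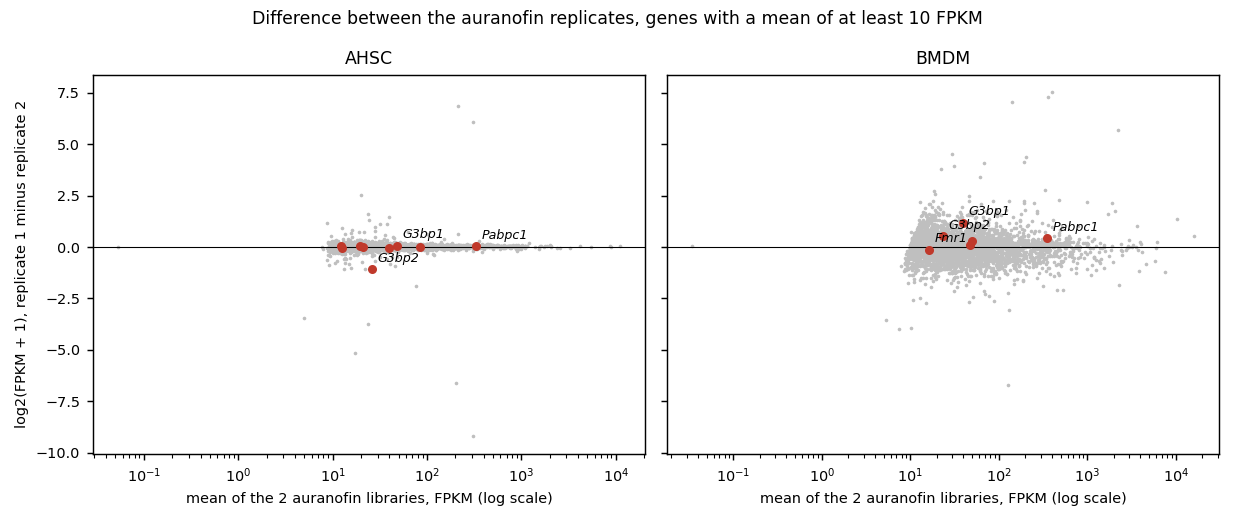
Difference between the auranofin replicates, as log2(FPKM + 1) of replicate 1 minus replicate 2, against their mean FPKM on a log axis, for genes that averaged 10 FPKM or more in a table (grey) and the stress granule genes among them (red, some without a name where they crowd). In AHSC G3bp2 lies at -1.07 while the other genes of the set lie near 0, and in BMDM the grey cloud is wide and G3bp1 lies at 1.19.

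In BMDM, G3bp2 had 47.2 and 46.7 FPKM in the controls and 28.2 and 19.2 FPKM with auranofin. Both auranofin libraries were below both controls, with group means ± SD (n = 2) of 47.0 ± 0.359 and 23.7 ± 6.35 FPKM. The log2 fold change, the value on which the set was selected, was -0.98 (SE 0.21), with -1.25 when auranofin replicate 1 was left out and -0.72 when replicate 2 was. The lower of the values thus came from the library that was otherwise close to the controls. G3bp1 had 24.0 and 24.2 FPKM in the controls, 55.5 FPKM in the first auranofin library and 23.7 FPKM in the second. Its groups overlapped, and the log2 fold change was 0.57 (95% interval -0.63 to 1.78, SE 0.43, limma adjusted p = 0.721 over 9232 genes). Leaving out auranofin replicate 1 turned it to -0.025, and leaving out replicate 2 gave 1.17.

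Within a library the ratio of the paralogs needs no scaling between libraries. The ratio of G3bp1 to G3bp2 FPKM was 1.27 and 1.31 in the AHSC controls, 2.98 in AHSC auranofin replicate 1 and 1.303 in replicate 2. It was 0.509 and 0.518 in the BMDM controls, 1.97 in BMDM auranofin replicate 1 and 1.23 in replicate 2. G3bp2 was the more abundant paralog in the BMDM controls, and G3bp1 was in the other 6 libraries. The summed FPKM of the pair was 71.3 and 70.9 in the BMDM controls, 83.7 in the first auranofin library and 42.9 in the second, where the sum lay above the controls in one library and below them in the other. In AHSC the sum was 88.2 and 83.8 in the controls and 66.6 and 83.5 with auranofin. These ratios contain the G3bp2 values that chose the set and are given without a test.

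**Figure D3:**
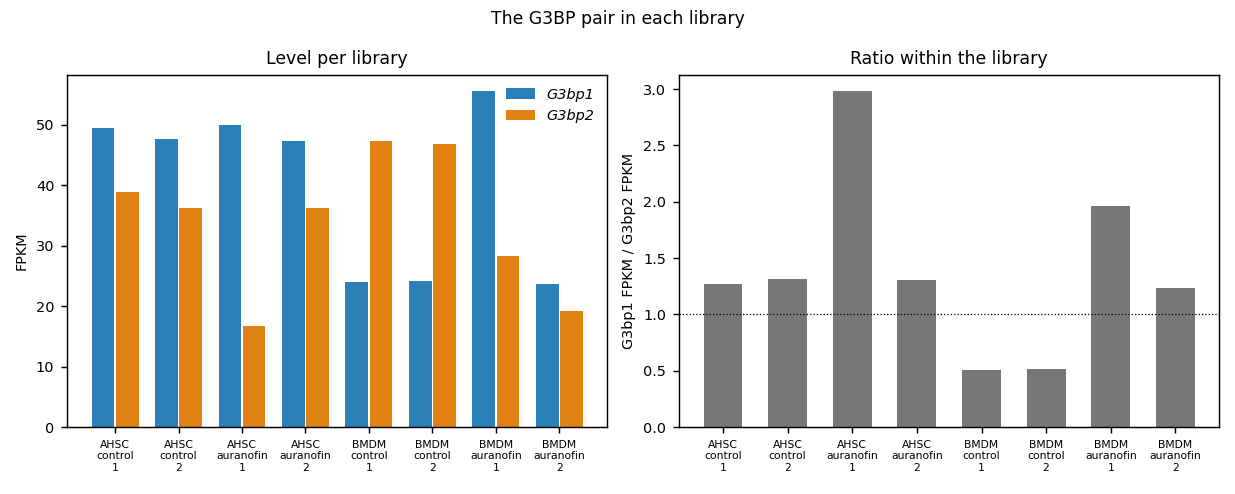
Left, FPKM of G3bp1 (blue) and G3bp2 (orange) in each of the 8 libraries. Right, the ratio of G3bp1 to G3bp2 FPKM in the same libraries, with a dotted line at equal levels: the BMDM controls lie at 0.509 and 0.518 and the BMDM auranofin libraries at 1.97 and 1.23.

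The G3BP partners were next compared. Caprin1, the partner that favours assembly, had 85.6 and 82.5 FPKM in the AHSC controls and 83.6 and 84.7 FPKM with auranofin, a log2 fold change of 0.0017 (SE 0.036). In BMDM Caprin1 had 63.3 and 49.4 FPKM in the controls and 54.7 and 45.0 FPKM with auranofin. The groups overlapped, and the controls alone differed by a factor of 1.28, the 56th widest gap among 4245 BMDM genes that averaged 10 FPKM or more. Its log2 fold change was -0.17 (95% interval -0.69 to 0.35, limma adjusted p = 0.724). Usp10, which encodes the deubiquitinase that opposes assembly, had 12.1 and 12.4 FPKM in the AHSC controls and 12.4 and 12.1 FPKM with auranofin, with a log2 fold change of -0.0021 (SE 0.044). In BMDM Usp10 had 2.64 and 2.98 FPKM in the controls, 6.13 FPKM in the first auranofin library and 2.96 FPKM in the second. The high value of replicate 1 made the log2 fold change 0.48 (95% interval -0.42 to 1.38, limma adjusted p = 0.721). Without that library it was 0.056, and without auranofin replicate 2 it was 0.90.

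TIA1 and TIAL1 are paralogs with prion-like domains that silence translation of bound transcripts. In AHSC, Tia1 had 7.68 and 7.52 FPKM in the controls and 7.21 and 8.10 FPKM with auranofin, and the auranofin values lay on both sides of the controls (log2 fold change 0.0069, SE 0.064). Tial1 had 13.1 and 12.9 FPKM in the AHSC controls and 12.4 and 12.7 FPKM with auranofin. Both auranofin values were lower, by a log2 fold change of -0.046 (SE 0.042, limma adjusted p = 0.621). In BMDM, Tia1 had 1.62 and 1.40 FPKM in the controls and 1.17 and 1.21 FPKM with auranofin. The groups did not overlap, and the log2 fold change was -0.20 (95% interval -0.57 to 0.18, limma adjusted p = 0.721). At this level the estimated fragments of Tia1 in a BMDM library numbered 56 to 217, depending on the library and the transcript length, so counting error alone could reach 13.4%. Tial1 had 4.36 and 5.28 FPKM in the BMDM controls and 8.01 and 5.71 FPKM with auranofin, with both auranofin values higher. Its log2 fold change was 0.42 (95% interval -0.14 to 0.98, limma adjusted p = 0.721), and 0.21 without auranofin replicate 1. The ratio of Tial1 to Tia1 was 2.69 and 3.76 in the BMDM controls and 6.85 and 4.74 with auranofin, against 1.57 to 1.72 in the 4 AHSC libraries.

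Pabpc1 had 332 and 326 FPKM in the AHSC controls and 339 and 327 FPKM with auranofin, and the groups overlapped (log2 fold change 0.019, SE 0.035). In BMDM Pabpc1 had 303 and 299 FPKM in the controls, 409 FPKM in auranofin replicate 1 and 303 FPKM in replicate 2. Its log2 fold change there was 0.22 (95% interval -0.28 to 0.73, limma adjusted p = 0.721), and 0.0089 without auranofin replicate 1. Atxn2, whose protein binds PABPC1, had 20.3 and 19.96 FPKM in the AHSC controls and 19.96 and 19.4 FPKM with auranofin (log2 fold change -0.032, SE 0.040). In BMDM Atxn2 had 6.34 and 7.37 FPKM in the controls, 11.7 FPKM in the first auranofin library and 6.78 FPKM in the second. Again a single library was high. The log2 fold change of Atxn2 in BMDM was 0.34 (95% interval -0.44 to 1.12, limma adjusted p = 0.721), and -0.011 without auranofin replicate 1.

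The fragile X family proteins bind ribosomes and messenger RNA. Fmr1, on the X chromosome, had 22.6 and 22.1 FPKM in the AHSC controls and 21.3 and 21.1 FPKM with auranofin. Both auranofin values were lower, and the log2 fold change was -0.073 (95% interval -0.17 to 0.022, limma adjusted p = 0.390). In BMDM, Fmr1 had 18.6 and 18.3 FPKM in the controls and 15.6 and 17.1 FPKM with auranofin, again lower in both. Its log2 fold change was -0.17 (95% interval -0.48 to 0.14, limma adjusted p = 0.721). Apart from G3bp2, Fmr1 was the gene of the set for which both auranofin libraries lay below both controls in each table, as they did for 341 (3.805%) of the 8963 genes tested in both. Fxr1, its autosomal relative, had 40.4 and 39.8 FPKM in the AHSC controls and 39.2 and 39.9 FPKM with auranofin. In BMDM it had 46.7 and 44.8 FPKM in the controls and 48.9 and 45.9 FPKM with auranofin. The groups overlapped in both tables, with log2 fold changes of -0.019 (SE 0.035) in AHSC and 0.049 (SE 0.11) in BMDM.

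Counted over the set in AHSC, 0 of the 10 genes had a limma adjusted p under 0.05, where 2.33% of all genes tested did, and 0 had one under 0.05 before adjustment, where 17.8% did. By the other rule, a fold change of at least 1.5 with an unadjusted p under 0.05, 0 of 10 passed, beside 0.576% of all genes. The groups did not overlap in 3 of 10 (G3bp2, Tial1 and Fmr1, all lower with auranofin), beside 50.1% of all genes. Every gene of the set other than G3bp2 had a log2 fold change between -0.073 and 0.019, and the median over the 10 was -0.010 beside 0.0049 over all genes tested. In BMDM the counts leave out G3bp2, on which the set was selected. Of the other 9 genes, 0 had a limma adjusted p under 0.05, beside 0.0108% of all genes, and 0 passed the 1.5-fold rule, beside 0.152%. The groups did not overlap in 3 of the 9 (Tia1 and Fmr1 lower, Tial1 higher), beside 38.8% of all genes.

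The BMDM values of the set divided by library (the plot of distances from the control mean). Again without G3bp2, 4 of the 9 genes lay at least 1.5-fold from the control mean in auranofin replicate 1 (G3bp1, Usp10, Atxn2 and Tial1, all higher), beside 23.2% of all genes. In auranofin replicate 2 the number was 0 of 9, beside 0.661% of all genes. The median of the 9 was 0.44 on the log2 scale in replicate 1, where that of all genes was 0.18, and -0.011 in replicate 2. With 2 libraries on each side, the smallest two-sided p of an exact permutation test is 0.333. The labels do not say that libraries of a group came from separate cultures or animals, so the limma p-values measure the spread between these libraries, which may be technical.

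**Figure D4:**
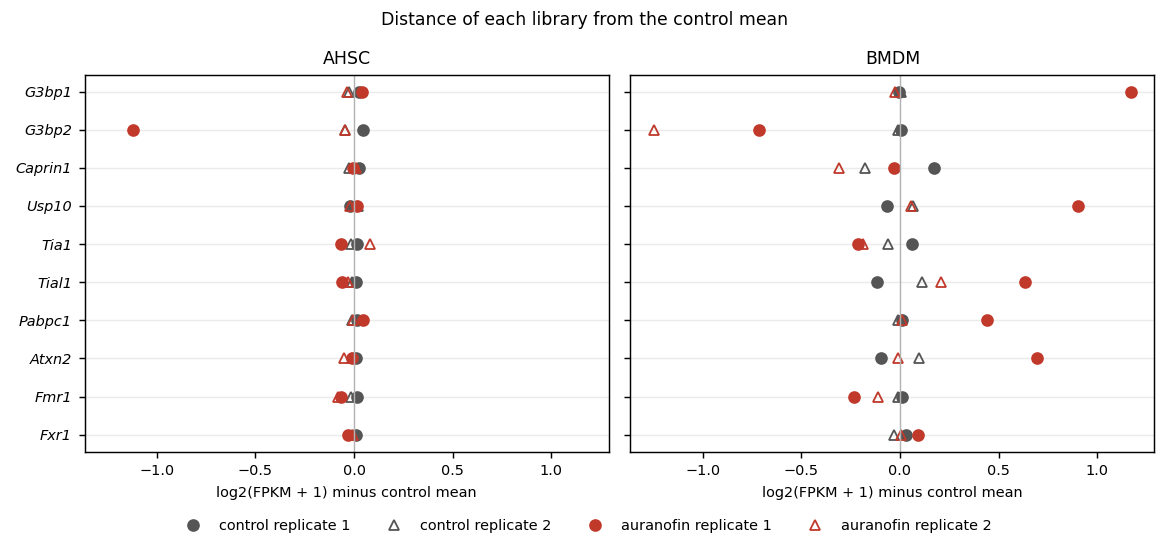
Distance of each library from the control mean of its table, in log2(FPKM + 1), for the 10 stress granule genes in AHSC (left) and BMDM (right), with controls in grey and auranofin in red, replicate 1 filled and replicate 2 open. G3bp2 lies below 0 in both BMDM auranofin libraries, at -0.72 and -1.25, while G3bp1, Usp10, Tial1, Pabpc1 and Atxn2 lie furthest above 0 in auranofin replicate 1.

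Other genes of stress granules, of the eIF2 switch that triggers them and of the P-bodies that border them were then examined. Of 73 further stress granule genes, 72 were tested in AHSC, and their median log2 fold change was -0.012. At a limma adjusted p under 0.05, 2 of these rose and 0 fell, a share of 2.78% beside the 2.33% of all genes tested, so the list did not stand out by its count. Eif4g2, which encodes a translation initiation factor, had 94.6 and 90.9 FPKM in the controls and 116 and 114 FPKM with auranofin (log2 fold change 0.31, SE 0.036, limma adjusted p = 0.0197). Vcp, whose ATPase takes part in granule clearance, had 241 and 237 FPKM in the controls and 290 and 285 FPKM with auranofin (log2 fold change 0.26, SE 0.032, limma adjusted p = 0.0199). Their auranofin values lay above both controls, but neither reached 1.5-fold. Leaving out auranofin replicate 1 gave limma adjusted p-values of 0.0765 for Eif4g2 and 0.0896 for Vcp at log2 fold changes of 0.29 and 0.25, and leaving out auranofin replicate 2 gave 0.0505 and 0.0580 at 0.32 and 0.28. The limma adjusted p-values were 0.0723 and 0.0762 without a filter on low values and 0.0729 and 0.0792 without the mean-variance trend. These 2 settings cannot change a fold change. The list kept 2 genes under 0.05 with another pseudocount, a filter at 5 FPKM, quantile normalization, centring on the median gene and a replicate block. The calls thus held in some settings and not in others.

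None of the 14 eIF2 genes passed either rule in AHSC. Their count at an unadjusted limma p under 0.05 was 1, or 7.14% beside 17.8% of all genes, and their median was 0.028. Of 18 P-body genes 1 rose (5.56% beside 2.33% of all genes), Ddx6, which encodes the RNA helicase of the decapping machinery. It had 29.9 and 28.4 FPKM in the AHSC controls and 45.3 and 46.6 FPKM with auranofin, a log2 fold change of 0.64 (SE 0.042, limma adjusted p = 0.00390) that also passed the 1.5-fold rule. The other 17 P-body genes did not pass either rule, and the median of the list was -0.014. In BMDM Ddx6 had 27.6 and 28.1 FPKM in the controls, 47.3 FPKM in auranofin replicate 1 and 23.4 FPKM in replicate 2, with groups that overlapped.

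In BMDM 70 stress granule, 13 eIF2 and 18 P-body genes were tested, and 0 passed either rule, beside 0.0108% and 0.152% of all genes. By unadjusted limma p under 0.05 the counts were 1, 0 and 0, beside 0.531% of all genes. The medians were 0.10, 0.14 and 0.096, beside 0.089 over all genes. In auranofin replicate 1 the medians were 0.21, 0.27 and 0.15, beside 0.18 over all genes, and in auranofin replicate 2 they were -0.015, -0.019 and 0.049. The share of the 70 stress granule genes at least 1.5-fold from the control mean in replicate 1 was 24.3%, close to the 23.2% of all genes. The genes farthest from the controls in that library, chosen after their values were seen, included Ppp1r15a, which encodes the phosphatase subunit that reverses eIF2α phosphorylation. It had 167 and 163 FPKM in the BMDM controls, 799 FPKM in the first auranofin library and 165 FPKM in the second. Zfp36l2 and Zfp36l1, genes of RNA decay factors, had 79.1 and 10.2 FPKM in auranofin replicate 1 and 13.5 and 1.66 FPKM in replicate 2.

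**Figure D5:**
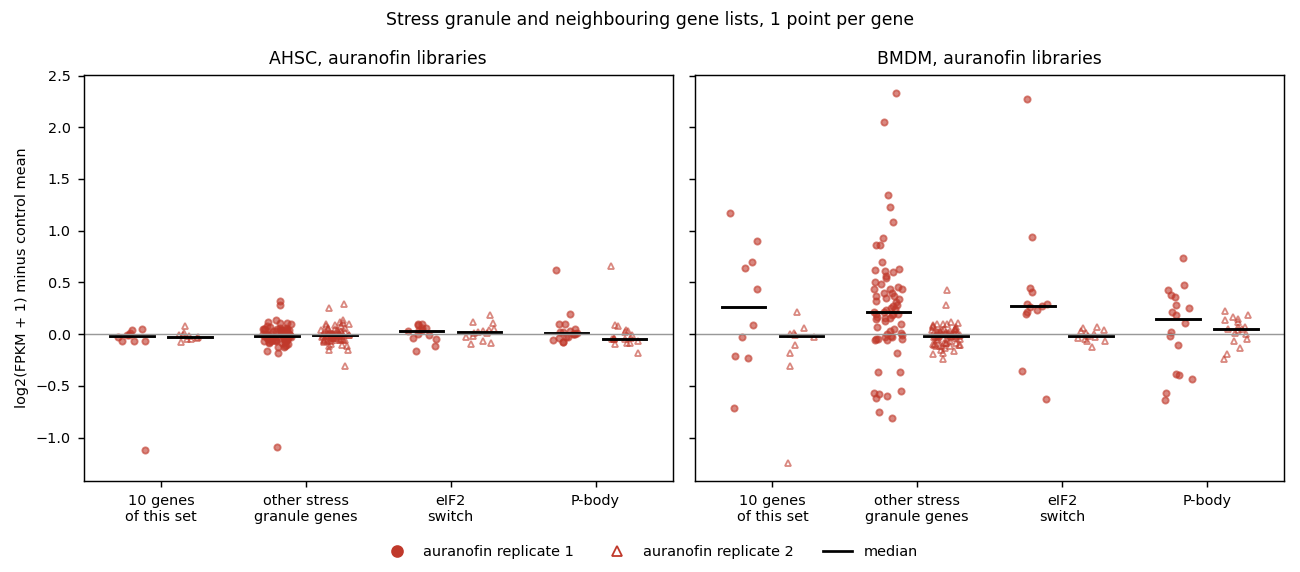
Distance from the control mean, in log2(FPKM + 1), of each gene of the 10-gene set and of the further stress granule, eIF2 switch and P-body lists in the auranofin libraries of AHSC (left) and BMDM (right), with black bars at the medians. The BMDM replicate 1 points spread up to 2.33 and have medians of 0.27, 0.21, 0.27 and 0.15, while the other libraries have medians between -0.044 and 0.049.

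The genes with values most like those of G3bp2 were sought over the 8 libraries, by the Euclidean distance of log2(FPKM + 1) less the control mean, among 8962 genes. This distance contains the BMDM values of G3bp2 that chose the set, so the neighbours are a description without a test. The nearest were Olfr111 at 1.07, Setdb2 at 1.13, Wdr37 at 1.14, Snord12 at 1.15 and Gm12669 at 1.18, where the median gene lay at 1.93 and a gene that stayed at its control mean would lie at 1.82. Setdb2, a histone methyltransferase family gene, had 37.6 and 35.2 FPKM in the BMDM controls and 20.8 and 20.5 FPKM with auranofin. In AHSC Setdb2 had 2.40 and 2.90 FPKM in the controls and 2.37 and 2.90 FPKM with auranofin, without the low replicate 1 of G3bp2. Gm12669 had 6.44 and 11.7 FPKM in the AHSC auranofin libraries beside 10.8 and 10.4 FPKM in the controls. In BMDM Gm12669 had 4.64 and 6.26 FPKM with auranofin beside 6.72 and 8.11 FPKM in the controls.

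The sequence of the genes limits how firmly their fragments can be assigned. G3bp2 lies at chr5:92052145-92137725 on the minus strand of GRCm38.p6 and has 5 RefSeq transcripts, 1884 to 4232 bases long. Of its transcript stretches of 50 bases, 39.0% also occur on the opposite strand in Gm26582, an overlapping lincRNA of the GENCODE annotation with no row in either table. The libraries were made with a stranded kit, but whether strand was used in the quantification is not given in the sources used here, so reads of Gm26582 cannot be told apart from those of G3bp2. G3bp1 lies at chr11:55469657-55500888 on the plus strand, and 8.89% of its stretches occur elsewhere, 7.02% in the processed pseudogene Gm5913. For Pabpc1 the share was 20.7%, 14.8% in the pseudogene Gm16580. The share was 6.64% for Tia1, 3.46% for Fxr1, 1.34% for Usp10 and 0.522% for Fmr1, and 0 for Tial1, Caprin1 and Atxn2. For Tial1 only 1 of its 3 RefSeq transcripts had a GENCODE match and was searched. No gene of the set shared such a stretch with another, so the paralogs G3bp1 and G3bp2 held no common stretch of that length.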

How the data were processed

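RNA was sequenced in 8 mouse libraries (2 per group) from a TruSeq stranded mRNA kit. Per the submitters' processing notes, which name no roles, CASAVA, FastQC 0.11.7, Trimmomatic 0.38, HISAT2 2.1.0 and StringTie 1.3.4d were used. The authors deposited 2 tables of FPKM on mm10 with RefSeq transcripts, 1 per cell type, without counts. Each table was fitted alone with limma 3.58.1 (lmFit, eBayes with trend; R 4.3.3) on log2(FPKM + 1), which understates the change of low genes, keeping genes that averaged 1 FPKM or more. P-values were adjusted over all genes tested by the Benjamini-Hochberg method, and the fit was tested on simulated data. The study states no test for its RNA sequencing. Members and gene lists were chosen with earlier results of these data known. Named were all 10 genes, list genes called by either rule (at most 5 each way), the 5 genes nearest to G3bp2, Hmox1 and defining markers. Replicates of a group were not copies of each other. Depth was estimated from values up to 0.2 FPKM in genes with 1 transcript, of which 50.4% to 58.8% lay within 0.1 of a whole number of fragments. Intervals from these fragments cover counting error only. Sequences were read from RefSeq (GRCm38.p6). Stretches of 50 bases were searched in GENCODE transcripts. Groups came from the labels, and doses and times from the labels and the study's text. Alternatives were another pseudocount, other filters, other scalings, other variance models, a replicate block and each library left out. Python 3.11.15, numpy 2.4.6, pandas 2.3.3 and matplotlib 3.10.9 were used.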

Additional observations from a re-analysis of the deposited data

Results flagged for a closer look

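For Tial1 the auranofin libraries lay on opposite sides of the controls in the 2 tables. In AHSC both were below both controls, with a log2 fold change of -0.046, and in BMDM both were above both controls, with a log2 fold change of 0.42. Dose, time and normalization differed between the tables, and this difference was not tested. Groups of 2 libraries are too small for a check of single outlying samples.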

How the results depend on the processing

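With 2 libraries per group and FPKM without counts, differences under the replicate spread could not be detected. Of 120 log2 fold changes of the 10 genes refitted under alternatives in AHSC, 116 stayed within 1 standard error, 3 moved further and 1 crossed the threshold, and of 118 in BMDM the numbers were 105, 5 and 8. The sign changed in 15 and 4 of them. The filters, variance models and replicate block cannot change a fold change here, only its p-value. The share within 1 standard error therefore overstates how stable the fold changes were. No value past the threshold reversed. In AHSC the count of further stress granule genes with an adjusted p under 0.05 went from 2 to 0 with no filter on low values, with eBayes without trend and with each gene's own variance, and the P-body count went from 1 to 0 with the own variance, under which 0 of all genes passed and 1585 had an unadjusted p under 0.05. The causes of these changes were not tested. In BMDM the 1 gene of the set past 1.5-fold was G3bp2. The set was selected on it, so its passing or loss under alternatives is not taken as a result. Leaving out 1 library at a time gave 0 to 1 genes of the set in AHSC by either rule, 0 to 2 further stress granule genes by adjusted p and 0 to 1 by 1.5-fold. Without auranofin replicate 2 the 1 gene of the set was G3bp2 and the further gene was Tardbp. In BMDM it gave 0 to 7 genes of the set by adjusted p and 1 to 5 by 1.5-fold, 0 to 50 and 0 to 17 further stress granule genes, 0 to 12 and 0 to 3 eIF2 genes, and 0 to 13 and 0 to 2 P-body genes. The high ends all came without auranofin replicate 2, where 65.2% of all genes had an adjusted p under 0.05 and 23.1% passed the 1.5-fold rule. The BMDM counts of the set include G3bp2, on which it was selected, and nothing is read from that gene. These fits assume that the lone library varies like the controls. The labels name no shared batch for a replicate number, and there are 2 pairs per table, so the numbers are not taken to pair the samples. The deviations of same-numbered libraries had a correlation of 0.109 in AHSC and -0.055 in BMDM over all genes tested, and 0.202 and -0.088 over genes that averaged 10 FPKM or more. The replicate block left 0 calls of the set by adjusted p in both tables and 0 by 1.5-fold in AHSC. Over all genes it moved the 1.5-fold count from 14 to 42 in BMDM and from 70 to 75 in AHSC.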
